A study of Rattus norvegicus with 2 samples.

Results

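The cyclins and PCNA are genes linked to cell division, though not all of them drive it. Of the 1185 genes on the Atlas Rat 1.2 membranes, 8 belong to them. They were taken as every spot whose deposited name holds cyclin, PCNA or proliferating cell nuclear antigen, leaving out names with kinase, inhibitor or tetracyclin. The members are the D-type cyclins Ccnd1, Ccnd2 and Ccnd3, cyclin E (Ccne1), cyclin B1 (Ccnb1), cyclin C (Ccnc), cyclin G (Ccng1) and Pcna. The tested cells were primary cultures of carotid body from Sprague Dawley rats held for 7 days in chronic hypoxia, labelled 1% oxygen, and compared with cultures kept for 7 days in normoxia at 21% oxygen. Both groups came from 16 pooled carotid bodies per culture and grew in the same medium with horse serum, fetal bovine serum and nerve growth factor. Each condition was hybridised as 32P-labelled cDNA from amplified RNA to 3 membranes, numbered 1 to 3. The labels call these replicates without saying that each came from its own culture, so every p-value rests on membrane-to-membrane variation, which may be technical.

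Cyclins are the regulatory partners of cyclin-dependent kinases, and a kinase is active only while its cyclin is present. D-type cyclins respond to growth factors and open the path out of the resting state, cyclin E drives entry into DNA synthesis, and cyclin B1 with Cdk1 drives mitosis. Cyclin C partners a kinase of the Mediator complex and acts mainly in transcription, and cyclin G is induced by DNA damage and does not drive the cycle. Pcna is the sliding clamp that holds DNA polymerase on its template and marks cells in DNA synthesis. The carotid body, the arterial oxygen sensor, is known to enlarge in rats kept in long hypoxia, partly through cell division.

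Cyclin C, cyclin G and cyclin B1 gave a signal above background on most membranes, while Ccnd1 and Pcna gave none on any membrane. Signal counted as above background once it lay over the median of its membrane by 3 times the spread found among the dimmer genes of that membrane (the root mean square distance of values below the median from it). By that rule Ccnc was above background on 6 membranes, Ccng1 and Ccnb1 on 5 each, Ccnd2 on 2, and Ccnd3 and Ccne1 on 1 each. At least 3 membranes showed signal for 3 of 8 members, against 12.8% of all 1185 genes, and 2 of 8 on no membrane, against 73.2%. No member differed between chronic hypoxia and normoxia past an adjusted p of 0.05 in limma.

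The membranes themselves differed in ways that bear on every value given here. Genes above background numbered 72 to 186 on the chronic hypoxia membranes and 139 to 205 on the normoxia membranes, and chronic hypoxia membrane 3 had a floor of 14591, with 309 to 412 on the other membranes. The deposited intensities also come in steps. The best-fitting step was 103.5 on chronic hypoxia membrane 2 and normoxia membranes 2 and 3, 51.5 on chronic hypoxia membrane 1 and 52 on normoxia membrane 1, while chronic hypoxia membrane 3 matched neither. Chronic hypoxia membranes 1 and 3 were more alike than any other pair, with a Spearman correlation across genes of 0.772, against 0.267 to 0.58 for the other pairs, and whether they share RNA is not stated. Genes are not independent replicates, so that correlation is a description. Of genes that mark the chemoreceptor (glomus) cells, Dbh, Slc6a3 and Cpe had signal on all 6 membranes and Slc18a3 on 3, while Chga, Slc18a2 and Ddc were above it on none. Of 4 endothelial markers, Nos3 was above background on 6 membranes, on 4 of them near the ceiling, and Edn1 on 3, while Kdr and Flt1 were on none. Of 2 fibroblast markers, Mmp2 was above it on 4 membranes and Timp1 on none, and the glial gene Mbp and the 3 immune markers were on none. These markers were split within their classes and do not settle which cells the cultures held. In bulk RNA fewer cells of a type and less RNA per cell cannot be told apart.

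The regions around the gene starts of the members with signal on most membranes, Ccnb1, Ccnc and Ccng1, are printed because the measurable values rest on these genes. They come from RefSeq, build GRCr8, and run from 250 bases before to 50 bases after the annotated start, 5′ to 3′. Capitals mark the letters CCAAT, a promoter element bound by the factor NF-Y, and the letters ACGTG or GCGTG, the core bound by hypoxia-inducible factors, on either strand. Of the 8 members, 6 were matched to such a window, and none was found for Ccnd1 and Ccnd2 in the sequences used here. The Ccnb1 window is chr2:33655176-33655475 on the minus strand, the Ccnc window is chr5:40063433-40063732 on the plus strand, and the Ccng1 window is chr10:25684827-25685126 on the minus strand.
Ccnb1: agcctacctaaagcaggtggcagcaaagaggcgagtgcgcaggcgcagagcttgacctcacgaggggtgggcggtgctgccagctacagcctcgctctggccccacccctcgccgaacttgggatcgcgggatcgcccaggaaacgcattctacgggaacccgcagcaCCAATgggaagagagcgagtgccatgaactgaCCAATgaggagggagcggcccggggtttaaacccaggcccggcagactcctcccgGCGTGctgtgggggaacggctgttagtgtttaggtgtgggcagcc
Ccnc: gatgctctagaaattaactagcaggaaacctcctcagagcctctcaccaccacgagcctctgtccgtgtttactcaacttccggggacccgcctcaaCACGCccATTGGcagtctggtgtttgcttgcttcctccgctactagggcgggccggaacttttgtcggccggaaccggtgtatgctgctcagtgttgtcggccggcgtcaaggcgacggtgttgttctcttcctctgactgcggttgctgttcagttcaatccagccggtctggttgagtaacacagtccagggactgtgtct
Ccng1: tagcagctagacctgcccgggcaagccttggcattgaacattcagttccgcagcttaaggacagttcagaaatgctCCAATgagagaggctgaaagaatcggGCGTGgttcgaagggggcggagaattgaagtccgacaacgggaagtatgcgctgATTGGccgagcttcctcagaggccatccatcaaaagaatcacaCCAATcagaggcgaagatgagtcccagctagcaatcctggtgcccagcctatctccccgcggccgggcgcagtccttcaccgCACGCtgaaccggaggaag
The Ccnb1 window held 2 CCAAT matches and 1 match of the hypoxia core. The Ccnc window held 1 of each, and the Ccng1 window held 3 CCAAT matches and 2 of the hypoxia core. None of these matches overlapped another. The searched letters are common, with CCAAT in 37.5% and the hypoxia core in 41.6% of the 33469 rat windows of this length. The cell-cycle element TTTGAA, present in 18.3% of the windows, and the E2F letters TTTCGCGC or TTTGGCGC, present in 0.792%, were in none of the 6 windows of the members. Only these letters were searched, so the absence does not cover other spellings of the elements. A match is a description of the letters and says nothing of binding in these cells.

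The D-type cyclins, which couple growth factor signals to the cell cycle, lay at or near background on most membranes. The brightest was Ccnd2 on normoxia membrane 3, at 2.46 times the background threshold and 5.02 times the median of that membrane. Ccnd1 had intensities of 2121, 3715 and 17779 on chronic hypoxia membranes 1 to 3 and of 2633, 5060 and 1957 on normoxia membranes 1 to 3. The high raw value on chronic hypoxia membrane 3 comes with that membrane's own median of 16411, and Ccnd1 was at 1.08 times it. Relative to the median of each membrane, Ccnd1 lay at 1.08 to 1.24 in chronic hypoxia and at 0.73 to 1.48 in normoxia, and the groups overlapped. Ccnd2 had 2633, 6203 and 17491 in chronic hypoxia and 3821, 8379 and 13449 in normoxia. It passed the background threshold on normoxia membranes 2 and 3 and on no chronic hypoxia membrane, with 6203 against a threshold of 6406 on chronic hypoxia membrane 2. Its direction was not settled. The fitted log2 difference of Ccnd2 was -0.47 with an SE of 0.71 (limma adjusted p = 0.863), yet chronic hypoxia membrane 2 had the highest normalized log2 value of the 6, at 13.19, and within the membranes with a step of 103.5 the difference was 0.35. Ccnd3 had 2894, 3721 and 21831 in chronic hypoxia and 3256, 6300 and 3712 in normoxia. Ccnd3 was above background on chronic hypoxia membrane 3, and on normoxia membrane 2 its 6300 lay just under a threshold of 6300.3. No D-type cyclin was above background in both groups, so the Ccnd2 differences are not read as folds.

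The genes of DNA synthesis were also dim on most membranes. Ccne1, whose product partners Cdk2 at the start of DNA synthesis, had 2586, 3103 and 17923 in chronic hypoxia and 3159, 5891 and 8370 in normoxia. It was above background on normoxia membrane 3 alone, where its intensity was 1.53 times the background threshold. Its spot lies directly beside that of Ccng1, which was brighter on all 6 membranes, and a spread of signal between spots was not tested. Pcna had 1756, 3412 and 15683 in chronic hypoxia and 2475, 5476 and 1857 in normoxia. On every membrane the Pcna intensity was below the threshold, at 0.34 to 0.869 times it, so its level could not be measured on either group of membranes. The plot of intensity over threshold shows these 5 spots at or under the line on most membranes.

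**Figure D1:**
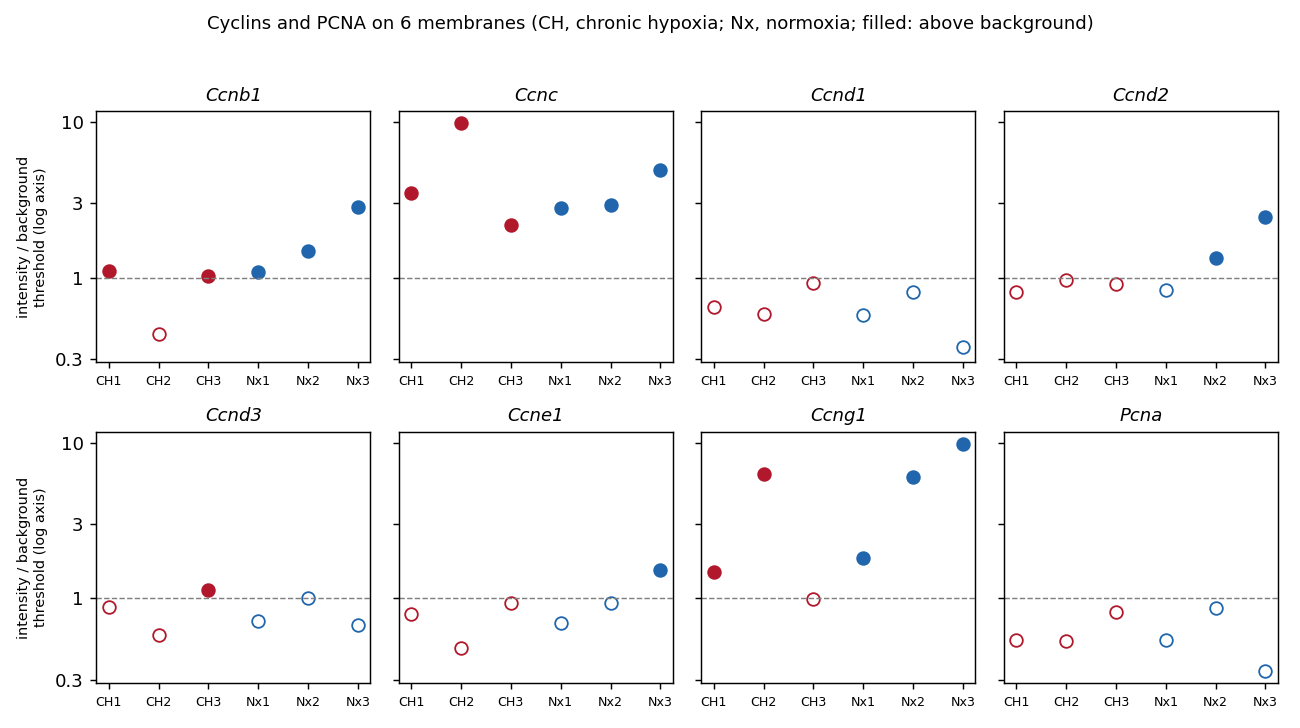
Each panel shows 1 gene, with its intensity divided by the background threshold of the membrane on a log axis, for chronic hypoxia membranes 1 to 3 (CH, red) and normoxia membranes 1 to 3 (Nx, blue). Filled points are above background, and the dashed line is the threshold. Ccnc is above the line on 6 membranes, Ccnb1 and Ccng1 on 5, and Ccnd1 and Pcna on none.

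Cyclin B1, the cyclin of mitosis, had 3621, 2781 and 19883 on chronic hypoxia membranes 1 to 3 and 4913, 9306 and 15544 on normoxia membranes 1 to 3. It was above background on the 3 normoxia membranes and on chronic hypoxia membranes 1 and 3. After background correction and quantile normalization, log2 intensity was 12.11, 9.80 and 11.97 in chronic hypoxia and 12.16, 13.28 and 12.82 in normoxia. The groups did not overlap, but chronic hypoxia membrane 1 and normoxia membrane 1 lay 0.05 apart, and the low value was that of chronic hypoxia membrane 2, where Ccnb1 ranked at percentile 26.4 of all genes. Mean log2 intensity was 11.29 ± 1.29 in chronic hypoxia and 12.75 ± 0.56 in normoxia (SD, n = 3 each). The log2 difference was -1.46 with an SE of 0.72 and a 95% interval of -3.06 to 0.13 (limma adjusted p = 0.645, two-sided exact permutation p = 0.1, the smallest that 3 against 3 membranes allow). Of 8 members 1 was lower in chronic hypoxia without overlap, against 7.42% of the 1038 tested genes. Without chronic hypoxia membrane 2 the Ccnb1 difference was -0.72, about the size of its SE in the fit of 6 membranes. In the authors' deposited table Ccnb1 was listed at 0 in chronic hypoxia and at 7562 in normoxia, while on chronic hypoxia membranes 1 and 3 it lay at 1.11 and 1.03 times the background threshold, a narrow margin. With a limit of 5 times the spread, Ccnb1 was above background on only 2 membranes.

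Cyclin C was above background on all 6 membranes, as were 4.14% of the genes on the array. Its intensities were 11310, 62491 and 41899 in chronic hypoxia and 12706, 18547 and 26970 in normoxia. The 62491 of chronic hypoxia membrane 2 lies within 5% of the ceiling of 65535, where differences and SDs are not exact. Normalized log2 intensity was 13.52, 15.70 and 14.42 in chronic hypoxia and 13.43, 14.50 and 13.77 in normoxia, and the groups overlapped. Mean log2 intensity was 14.54 ± 1.10 in chronic hypoxia and 13.90 ± 0.54 in normoxia (SD, n = 3 each). The difference of 0.64, with an SE of 0.68 and a 95% interval of -0.85 to 2.14, did not pass (limma adjusted p = 0.835, two-sided exact permutation p = 0.5). Chronic hypoxia membrane 2 decided its size, and without it the Ccnc difference was 0.07. The authors' deposited table gave Ccnc 33863 in chronic hypoxia and 12023 in normoxia, a ratio of 2.82, which also takes in the membrane near the ceiling.

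Cyclin G had 4812, 40359 and 19239 in chronic hypoxia and 8347, 37902 and 53762 in normoxia. It was above background on 5 membranes and narrowly below on chronic hypoxia membrane 3, where the threshold was 19280. Normalized log2 intensity was 12.59, 15.41 and 11.81 in chronic hypoxia and 12.77, 15.73 and 14.72 in normoxia, with overlap between the groups. Means were 13.27 ± 1.89 in chronic hypoxia and 14.41 ± 1.51 in normoxia (SD, n = 3 each). The difference was -1.14 with an SE of 1.01 and a 95% interval of -3.36 to 1.09 (limma adjusted p = 0.787, two-sided exact permutation p = 0.4). With the resembling chronic hypoxia membranes 1 and 3 averaged and counted as 1 replicate, the Ccng1 difference was -0.60. Ccng1 had the widest SD of the 8 members in each group. The authors' deposited table gave Ccng1 31549 in chronic hypoxia and 28692 in normoxia, a ratio of 1.10, on the other side of 1 from the fit.

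The level of cyclin G split by the step size of the deposited values and not by the oxygen label. On the 3 membranes with a step of 103.5, 1 from chronic hypoxia and 2 from normoxia, normalized log2 intensity of Ccng1 was 14.72 to 15.73, and on the other 3 it was 11.81 to 12.77. Ccnd2 was split the same way, at 12.54 to 13.19 on the large-step membranes and 11.20 to 11.56 on the others. The mean gap was 2.90 for Ccng1 and 1.56 for Ccnd2 on the log2 scale. Of all 1038 tested genes, 7.13% were higher on the large-step membranes without overlap, and 8.55% of the 152 genes with signal on 3 or more membranes. No member was lower on them without overlap, against 9.15%. The split was seen in these values and is given as a description, without a test, and the labels do not say what the step stands for. Within the large-step membranes the Ccng1 difference between chronic hypoxia and normoxia was 0.18, and between membrane 1 of each group it was -0.18. With the step as a block it was 0.03. In that fit chronic hypoxia membrane 3 was alone in its step class and had no weight in the difference. The 0.03 therefore only combines the 0.18 and the -0.18.

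**Figure D2:**
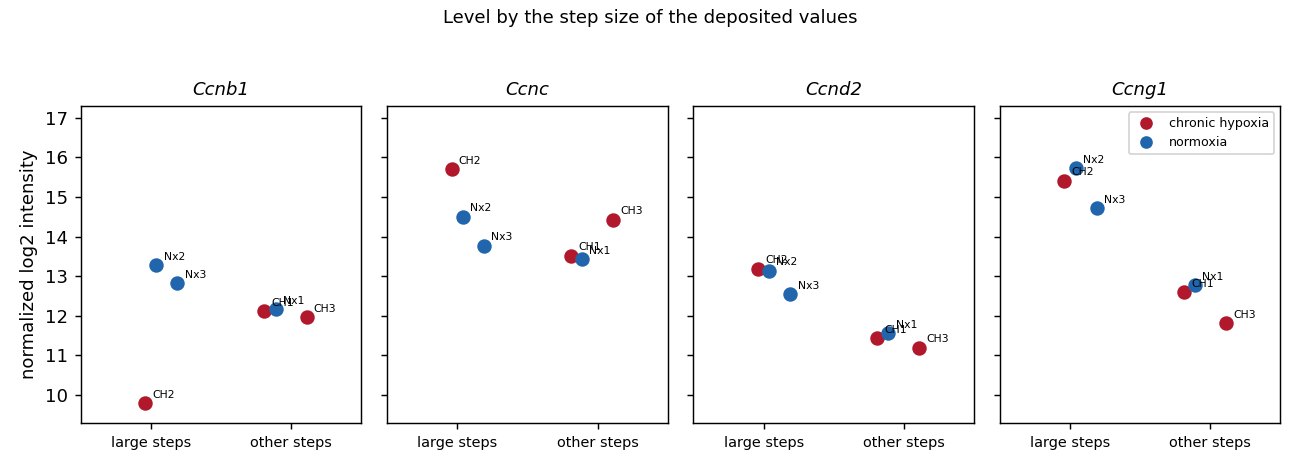
Normalized log2 intensity (vertical axis) of Ccnb1, Ccnc, Ccnd2 and Ccng1 on the 3 membranes with a step of 103.5 (large steps) and on the other 3, coloured by chronic hypoxia (CH) or normoxia (Nx). Ccng1 lies at 14.72 to 15.73 on the large-step membranes and at 11.81 to 12.77 on the others.

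For cyclin B1 and cyclin C the difference was wider within the large-step membranes than between membrane 1 of each group. For Ccnb1 it was -3.25 between chronic hypoxia membrane 2 and the mean of normoxia membranes 2 and 3, and -0.05 between membrane 1 of each group. The -3.25 rests on a chronic hypoxia spot that was not above background. For Ccnc the corresponding values were 1.56 and 0.08. Both comparisons leave out chronic hypoxia membrane 3, and each has 1 chronic hypoxia membrane, so no test goes with them.

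**Figure D3:**
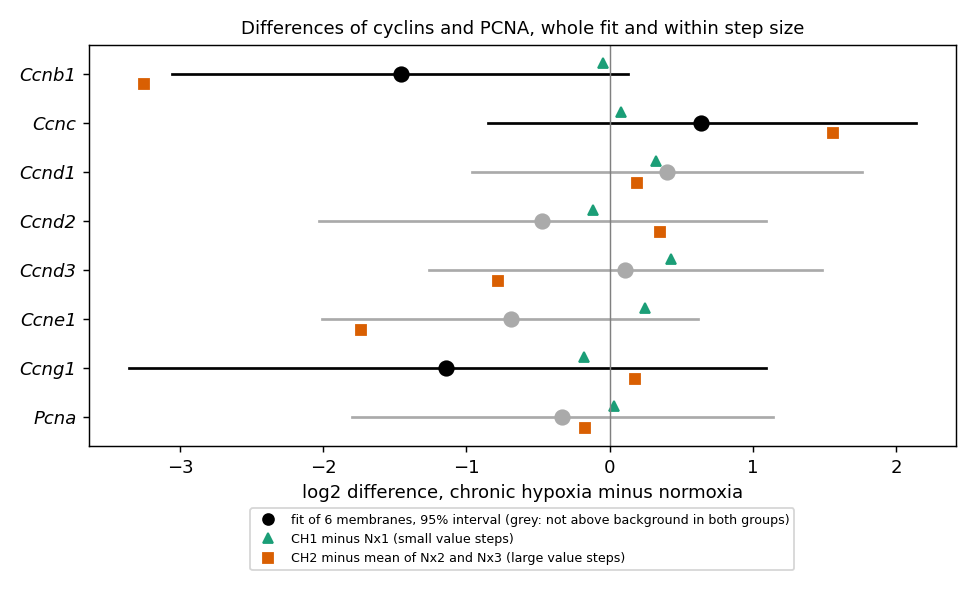
The log2 difference of each member, chronic hypoxia minus normoxia (horizontal axis), from the fit of 6 membranes with its 95% interval (circles), between membrane 1 of each group (triangles) and within the membranes with a step of 103.5 (squares). All 8 intervals include 0, and grey circles are genes not above background in both groups.

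Among the 8 members, 3 had a fitted difference above 0 and 5 below it, where 48.2% of the 1038 tested genes were below it. The median was -0.40, against 0.03 over all tested genes. All 8 passed the filter on dim spots, and 5 of them were not above background in both groups, so that count is largely one of background spots. Of the 8 members, 0 had an adjusted p under 0.05, against 0% of all tested genes, and 0 had an unadjusted p under 0.05 in limma, against 7.23% (75 genes). The authors' deposited table held 3 members above 0 in both conditions, Ccnc, Ccng1 and Ccnd2, against 11.1% of all genes. The authors' deposited table listed Ccnb1 and Ccne1 in normoxia alone, against 5.99% of all genes, no member in chronic hypoxia alone, against 10.2%, and Ccnd1, Ccnd3 and Pcna at 0 in both. It gave Ccnd2 3864 in chronic hypoxia and 2972 in normoxia, a ratio of 1.30 in the authors' deposited table. On the membranes Ccnd2 was above background in normoxia alone, so that ratio is not read as a fold.

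Other genes of the cell cycle were read from the same fit. The list held 26 genes chosen by their names, of which 25 were tested. Of these, 17 had a difference above 0 and 8 below it, where 48.2% of all tested genes were below it. None passed (lowest limma adjusted p 0.645), and 0 had an unadjusted p under 0.05 in limma, against 7.23% of all tested genes. The median log2 difference of the list was 0.38, against 0.03 over all tested genes. Of the 26, 15 were above background on no membrane, against 73.2% of all genes. Of the 25, 1 was higher and 1 lower in chronic hypoxia without overlap of the groups, Gadd45a and Cdc25b, against 6.45% higher and 7.42% lower among all tested genes, 13.9% together. Gadd45a, a growth arrest gene induced by DNA damage, was above background on chronic hypoxia membranes 1 and 3 alone, and Cdc25b, a phosphatase that activates Cdk1, on normoxia membranes 2 and 3 alone. Gadd45a lay at 1.21 and 1.13 times the threshold there, a narrow margin on the most alike pair of membranes. Cdc25b lay at 1.1 and 1.69 times the threshold on its membranes.

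Of the 26 genes, 4 were above background on at least 3 membranes, against 12.8% of all genes. Cdc20, which triggers the destruction of cyclin B1 at the end of mitosis, had 41633, 13683 and 57065 in chronic hypoxia and 30167, 7536 and 53193 in normoxia. Its normalized log2 values differed by 1.17 (SE 0.64, limma adjusted p = 0.645), and the groups overlapped. Cdk2, the partner of cyclin E, had 7924, 16359 and 28671 in chronic hypoxia and 6840, 8167 and 25402 in normoxia, and differed by 0.56 on the log2 scale (SE 0.65). Rbl2 (p130), a repressor of cell cycle genes in resting cells, was above background on all 6 membranes, with 38792, 9934 and 34159 in chronic hypoxia and 10723, 33341 and 52232 in normoxia. The limma adjusted p of Rbl2 was 1, and its log2 difference had an SE of 0.72. Ddit3, named on the array as a growth arrest gene, had 3668, 6097 and 18219 in chronic hypoxia and 5377, 15438 and 17932 in normoxia. Ddit3 was above background on 1 chronic hypoxia and 3 normoxia membranes and differed by -0.93 with an SE of 0.66 (limma adjusted p = 0.764).

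The partners of the mitotic and D-type cyclins and the enzymes of DNA synthesis were dim. Cdk1, which works with cyclin B1, was above background on chronic hypoxia membranes 1 and 3 and on no normoxia membrane, with 4030, 3200 and 21775 in chronic hypoxia and 3724, 2272 and 5070 in normoxia. The margin of Cdk1 was narrow, at 1.24 and 1.13 times the threshold there and at 0.929 times on normoxia membrane 3. Cdk4, the partner of the D-type cyclins, was above background on none, like the inhibitors Cdkn1a, Cdkn1b and Cdkn2b. Top2a, which untangles DNA and is high in dividing cells, was above background on no membrane and did not pass the filter on dim spots. Of the other DNA synthesis genes, Tk1 was above background on 1 normoxia membrane and Tyms and Rpa2 on none.

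**Figure D4:**
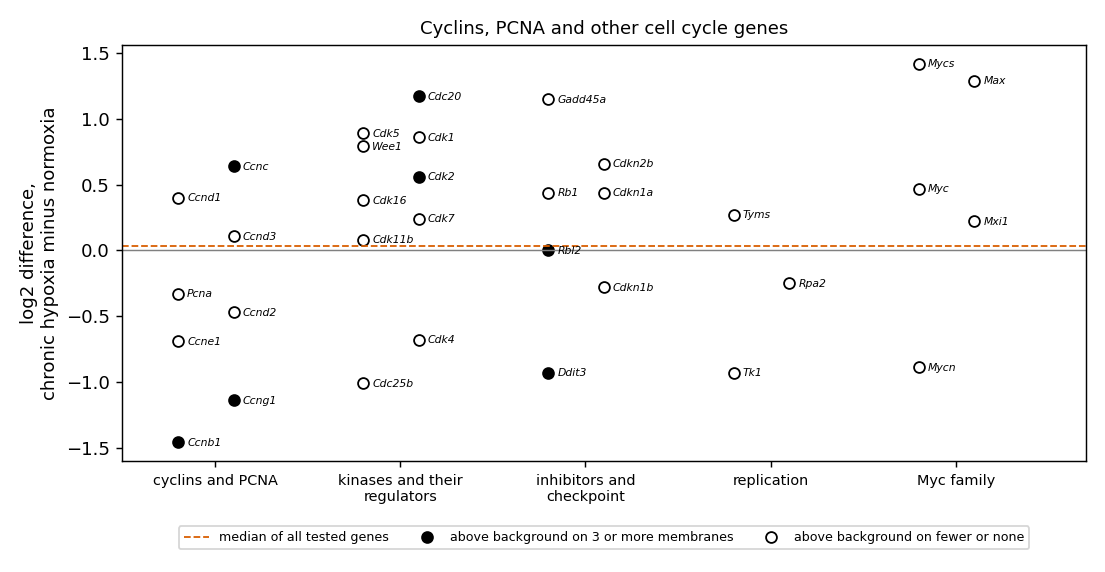
Log2 differences, chronic hypoxia minus normoxia (vertical axis), of the 8 cyclins and PCNA and of 25 other cell cycle genes in 4 classes. Filled points are above background on at least 3 membranes, the dashed line is the median of all tested genes (0.03), and 0 genes shown passed the test.

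The genes whose normalized values ran most like those of each member were found among the 151 other genes above background on at least 3 membranes, by Pearson's r over the 6 membranes, as a description without a test. Ccnb1 ran with the ATP synthase beta subunit (r = 0.930), proteasome component C8 (0.927) and glutathione reductase (0.914). Ccnc ran with acyl-CoA oxidase (r = 0.847), GABA transaminase (0.825) and Cdk2 (0.800). Ccng1 ran with interleukin 13 (r = 0.998), a dopa and tyrosine sulfotransferase (0.986) and Ddit3 (0.948), and these genes were also higher on the large-step membranes without overlap. Among the members, r was 0.537 between Ccnc and Ccng1, -0.680 between Ccnb1 and Ccnc and -0.054 between Ccnb1 and Ccng1. All of these r values share the membranes, their step sizes and one normalization.

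The spots of the members lie together on the membrane, so bright neighbours were read as well. The spot of Ccnb1 lies directly beside that of RCL, a c-Myc-responsive gene, which was brighter on 4 of 6 membranes. Among them were chronic hypoxia membranes 1 and 3 and normoxia membrane 1, where Ccnb1 was at 1.11, 1.03 and 1.08 times the threshold. The remaining one was chronic hypoxia membrane 2, where RCL, at 5064, was under the threshold of 6406 and Ccnb1 was at 0.434 times it. A spread of signal from RCL was not tested. Ccnb1 also lies beside Ccnc, which was brighter on all 6 membranes. On chronic hypoxia membrane 2, where Ccnc was at 62491, Ccnb1 was at 2781 and below the median of 3409. Ccnc in turn lies beside Cdc20, which was brighter on 4 of 6 membranes, and Ccng1 lies beside prothymosin alpha, brighter on 3. On chronic hypoxia membrane 2, where Ccng1 was at 40359, Ccne1 beside it was at 3103 and also below the median. On normoxia membrane 3, where Ccng1 was brightest at 53762, Ccne1 was at 8370, the only membrane on which it was above background, and on normoxia membrane 2, where Ccng1 was at 37902, Ccne1 was at 5891, or 0.935 times the threshold.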

How the data were processed

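RNA of carotid body cultures in chronic hypoxia and normoxia was measured on 6 nylon membranes, 3 per group, quantified with AtlasImage V2.0 per the labels' protocols. The authors' deposited membrane files give 1 linear intensity per gene, not scaled between membranes and with background included, judging by their lowest values. The authors' deposited table holds an intensity for each gene in each condition, averaged over membranes and normalized to the mean signal per the labels, and how background was removed for it is not given in the sources used here.

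Membrane intensities were corrected with normexp (offset 50), taken to log2 and quantile normalized, and fitted with limma 3.58.1 (R 4.3.3, lmFit and eBayes, group as the only term), with Benjamini-Hochberg adjustment over 1038 genes above the 25th percentile on at least 3 membranes. The code was tested on simulated data with large planted changes and a smaller spread than the membranes show. That test does not show how the fit performs at the real spread. Exact permutation tests covered the 20 assignments of the membranes. The number of membranes, 3 per group, limits the precision.

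The members, lists and tests were chosen with earlier results of these data known. Named genes were all members, other cell cycle genes above background on at least 3 membranes, the 3 genes most like each such member, and neighbouring spots. The remaining cell cycle genes in the text, and which neighbours it gives, were picked with their values known. A further 12 genes matched by cell cycle words were left out for their meaning (for example Ras p21). Some genes are not reported here. Symbols were assigned by hand from the deposited names, and all 51 used were found in RefSeq (GRCr8). Alternatives covered background, normalization, filter, weights, blocks, left-out membranes and chronic hypoxia membranes 1 and 3 counted as 1. Membranes of the same number deviated from their group means with correlations of 0.0912, 0.114 and 0.0235, so the numbers were not taken as pairs. Python 3.11.15, pandas 2.3.3 and matplotlib 3.10.9 were also used.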

Additional observations from a re-analysis of the deposited data

How the results depend on the processing

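No gene passed an adjusted p of 0.05 under any of 17 alternatives, cyclins, PCNA and the other cell cycle genes included, and the lowest adjusted p over them was 0.0512, without normalization, a setting in which the median log2 difference over all genes was -0.17, against 0.03 as reported. The Ccnb1 and Ccnc differences kept their sign in all alternatives that gave a value. The Ccng1 difference turned positive with the step size as a block (0.03), within the large-step membranes (0.18) and in the log2 ratio of the authors' deposited table (0.14). The block value only combines the 0.18 and the difference between membrane 1 of each group, without chronic hypoxia membrane 3. With single membranes left out, the difference ranged from -1.87 to -0.72 for Ccnb1, 0.07 to 1.16 for Ccnc and -2.21 to -0.41 for Ccng1. The lowest Ccnb1 and Ccnc sizes came without chronic hypoxia membrane 2 and the Ccng1 one without chronic hypoxia membrane 3 (without normoxia membrane 2, -0.48). With the replicate number as a block the differences were -1.46, 0.64 and -1.14, with limma adjusted p of 0.590, 0.770 and 0.634, and no call changed. With chronic hypoxia membranes 1 and 3 counted as 1 replicate they were -1.83, 0.93 and -0.60. With membrane weights they were -0.88, 0.23 and -1.98, and the causes were not tested. With 2 times the spread as the background limit 5 members were above it on at least 3 membranes, and with 5 times the spread 2 members were. Spots at background limit what the other 5 members can show.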

Other observations

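Of the 26 other cell cycle genes, 4 were listed in the authors' deposited table in chronic hypoxia alone, against 10.2% of all genes. Another 2, Cdc25b and Tk1, were listed in normoxia alone, against 5.99%. The 4 were all among the 10 kinases and direct regulators, and the inhibitor, replication and Myc family classes held 0. The same class held Cdc25b, listed in normoxia alone, and the split by class was seen in these values and not tested. The authors' deposited table gave 3254 for Cdk7, 1395 for Cdk5, 1303 for Cdk1 and 1427 for Wee1 in chronic hypoxia and 0 for each in normoxia. On the membranes Cdk7 and Cdk1 were above background on 2 chronic hypoxia membranes each and on 0 normoxia membranes, while Cdk5 and Wee1 were above background on no membrane. For both genes these were chronic hypoxia membranes 1 and 3, the most alike pair, and the margins were narrow. Cdk7 lay at 1.05 and 1.04 times the threshold there and at 0.902 times on normoxia membrane 2. Cdk1 lay at 1.24 and 1.13 times it there and at 0.929 times on normoxia membrane 3. No test goes with these values, and 0 of the 4 genes passed in limma.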
